A study of Mus musculus with 10 samples.

Results

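The genes described here are the immunoglobulin constant region genes and the plasma cell genes of a 3′ end RNA sequencing experiment on whole mouse kidney. The list held Ighm, Ighg1, Ighg2b, Ighg2c, Ighg3, Igha, Igkc, Jchain and Mzb1, 9 genes in all, picked by symbol from the 13299 genes of the table of normalized counts. Of these, 7 were in the table and all 7 passed the filter on low values; Ighg3 and Mzb1 were not analysed here. They were chosen with the difference between the genotypes in view, so that difference is given for them as a description and carries no test. The kidneys came from mice aged 1.5 years that were either Rragc S74N/+, with a knocked-in S74N change in one allele of Rragc, or Rragc +/+, with 5 mice of each genotype. RagC, the product of Rragc, is a GTPase that reports nutrients to the growth kinase mTORC1, and S74N is an activating change. The knock-in was carried by every cell of the body, the lymphocytes included. Replicates were numbered 1 to 5 within a genotype by order of deposit.

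Immunoglobulins are made by B lymphocytes and, in far larger amounts, by the plasma cells that B lymphocytes become. The constant gene of the heavy chain sets the isotype: Ighm gives IgM, which B cells make first, and class switching replaces it by one of the Ighg genes, which give the IgG subclasses, or by Igha, which gives IgA, the main antibody of mucosal surfaces. Igkc encodes the constant part of the kappa light chain, and Jchain encodes the peptide that joins IgA and IgM into polymers. A kidney normally holds few such cells, and its bulk RNA reports them only through these very abundant transcripts.

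The IgG genes are close relatives, and the reads come from the 3′ end of each transcript, so the ends decide how well the genes can be told apart. The last 120 coding bases and the stop codon of the secreted form are shown for the 3 IgG genes on which the results turn. They were read from the GENCODE transcripts of build GRCm38, and capitals mark bases that differ from Ighg2c at the same position.
Ighg2c: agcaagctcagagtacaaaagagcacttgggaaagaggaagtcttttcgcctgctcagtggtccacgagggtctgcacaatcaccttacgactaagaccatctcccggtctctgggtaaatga
Ighg2b: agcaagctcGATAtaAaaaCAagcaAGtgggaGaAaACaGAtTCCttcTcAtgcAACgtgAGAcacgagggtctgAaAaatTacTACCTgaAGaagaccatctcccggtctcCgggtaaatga
Ighg1: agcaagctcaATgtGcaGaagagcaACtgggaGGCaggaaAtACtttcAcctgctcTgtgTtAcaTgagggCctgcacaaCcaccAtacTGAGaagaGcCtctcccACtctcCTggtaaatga
Over these 123 bases, Ighg2b differed from Ighg2c at 37 positions and Ighg1 differed from Ighg2c at 30. In the last 300 bases of each secreted transcript, none of the 251 windows of 50 bases of Ighg1, Ighm, Igha or Igkc came within 3 mismatches of a transcript of another immunoglobulin constant gene compared. Ighg2b and Ighg2c matched each other within 3 mismatches in 39 of the 251 windows (15.5%) and were identical in none, so their reads can be confused with each other and their separate values are less certain than their sum. Of the members, RefSeq promoter windows (GRCm38.p6, 250 bases before to 50 after the start) were at hand for Jchain alone. It did not hold the octamer ATTTGCAT on either strand, which 1.74% of 32851 promoter windows held, and it held the letters CAGGTG on the reverse strand 5 bases after the start, as did 20.2% of all windows on either strand at any position.

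Whole reads could be recovered in 8 libraries, which held 4488493 to 5797251 reads in the table, and the normalized totals of all 10 libraries lay between 4473981 and 5087152. One read comes from one transcript end, so a level does not scale with transcript length. Kidney markers such as Kap, Lrp2 and Slc34a1 summed to 120044 to 161340 normalized counts in Rragc +/+ and to 117805 to 150885 in Rragc S74N/+. Kap made up most of these sums (means of 94161 in Rragc +/+ and 103466 in Rragc S74N/+). Umod, Slc12a3 and Slc5a2, of the same list, were lower in Rragc S74N/+ without overlap. All 8 adipose markers searched were in the table, and their sum stood apart in Rragc S74N/+ replicate 1 (4682 against 50.9 to 333 in the other Rragc S74N/+ kidneys) and was highest among Rragc +/+ kidneys in replicate 3 (1197 against 57.6 to 434). Results are therefore also given without these 2 libraries. None of 8 adrenal cortex genes was in the table. The Y-linked genes Ddx3y, Uty, Kdm5d and Eif2s3y were detected in all 10 kidneys, for which the labels give no sex. In bulk tissue, fewer cells of a type and less RNA per cell cannot be told apart.

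The 3 measured IgG genes were higher in Rragc S74N/+ kidneys than in Rragc +/+ kidneys with no overlap between the genotypes, and the 4 other genes were higher on average but overlapped. Ighg1, which encodes the IgG1 heavy chain, had normalized counts of 1.12, 6.24, 8.64, 5.24 and 11.9 in Rragc +/+ replicates 1 to 5. In Rragc S74N/+ replicates 1 to 5 it had 317, 977, 16, 40.7 and 35.0. Every Rragc S74N/+ value lay above every Rragc +/+ value, but replicates 1 and 2 were far above the other 3, and the lowest, 16, was close to the highest Rragc +/+ value. The log2 fold change was 3.87 ± 0.86 (SE, n = 5 per genotype). The lowest Rragc +/+ value corresponds to 1 read, so the fold is imprecise.

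Ighg2b, the IgG2b heavy chain, had 58.2, 28.1, 113, 37.6 and 72.6 normalized counts in the Rragc +/+ kidneys. It had 786, 968, 243, 418 and 212 in the Rragc S74N/+ kidneys. The genotypes did not overlap, the means differed 8.48-fold and the log2 fold change was 2.97 ± 0.41 (SE). Ighg2c, the IgG2c heavy chain, had 90.6, 41.6, 85.4, 10.5 and 41.8 in Rragc +/+. It had 1068, 1308, 163, 630 and 188 in Rragc S74N/+. These values did not overlap either, the means differed 12.4-fold and the log2 fold change was 3.47 ± 0.59 (SE). As for Ighg1, replicates 1 and 2 were the highest of the Rragc S74N/+ kidneys and replicates 3 and 5 the lowest. Without the 2 libraries rich in adipose markers, the log2 fold changes were 3.57 for Ighg1, 3.02 for Ighg2b and 3.43 for Ighg2c.

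These 3 genes also passed the limma test over all genes, the only members that did so, and none was lower. Over all 13236 tested genes, 6.03% passed, 3.45% as higher and 2.58% as lower in Rragc S74N/+, and in 4.15% every Rragc S74N/+ value lay above every Rragc +/+ value, while in 4.01% every one lay below. The members were chosen for this contrast, so nothing is read from their count beside these shares. Their median log2 fold change was 1.0 and that of all tested genes -0.01, and all 7 estimates were above 0.

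**Figure D1:**
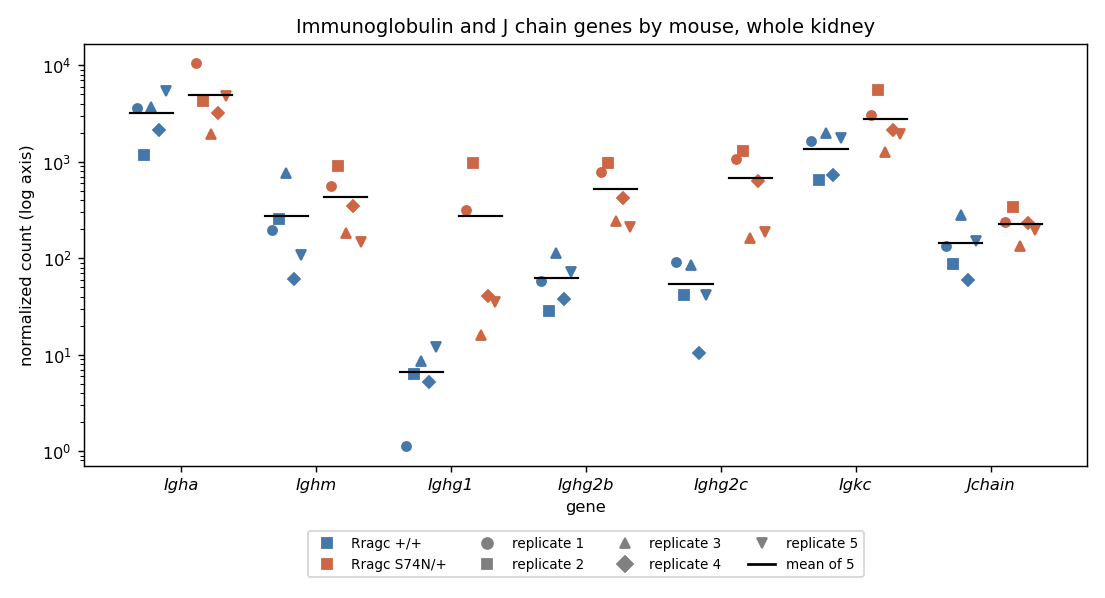
Normalized counts (log axis) of the 7 measured genes in each mouse, with Rragc +/+ in blue, Rragc S74N/+ in orange, one symbol per replicate number and a black line at the mean of 5; a number shared between genotypes does not pair mice. The orange and blue points separate for Ighg1, Ighg2b and Ighg2c and overlap for Igha, Ighm, Igkc and Jchain.

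Igha, the IgA heavy chain, was the most abundant of the 7 genes in every kidney except Rragc S74N/+ replicate 2. It had 3591, 1171, 3690, 2127 and 5374 normalized counts in Rragc +/+ and 10545, 4232, 1941, 3218 and 4860 in Rragc S74N/+. The genotypes overlapped almost fully apart from replicate 1 of Rragc S74N/+, which was also the library rich in adipose markers. The log2 fold change was 0.59 ± 0.40 (SE) with all libraries and 0.35 ± 0.32 (SE) without the 2 adipose-rich ones.

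Ighm, the heavy chain of unswitched B cells and of IgM plasma cells, had 197, 257, 765, 60.3 and 107 normalized counts in Rragc +/+. It had 565, 896, 184, 351 and 148 in Rragc S74N/+. Replicate 3 of Rragc +/+ exceeded 4 of the 5 Rragc S74N/+ kidneys, and the log2 fold change was 0.85 ± 0.56 (SE). It was 1.35 without that kidney, 0.44 when Rragc +/+ replicate 4 was left out, 0.50 when Rragc S74N/+ replicate 2 was, and 1.17 ± 0.42 (SE) without the 2 adipose-rich libraries. Jchain had 134, 86.3, 283, 59.4 and 150 in Rragc +/+ and 235, 337, 135, 230 and 197 in Rragc S74N/+. Here too replicate 3 of Rragc +/+ reached into the Rragc S74N/+ range, and the log2 fold change was 0.80 ± 0.33 (SE). Without the 2 adipose-rich libraries it was 1.07 ± 0.26 (SE).

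Igkc had 1628, 655, 2010, 733 and 1760 normalized counts in Rragc +/+ and 3059, 5602, 1270, 2112 and 1933 in Rragc S74N/+. The highest value was that of Rragc S74N/+ replicate 2, the kidney with the highest IgG values, and the genotypes overlapped. The log2 fold change was 1.0 ± 0.36 (SE), and 1.10 ± 0.33 (SE) without the 2 adipose-rich libraries. Relative to the sum of the 5 measured heavy chain genes, Igkc stood at 0.38 ± 0.06 in Rragc +/+ and 0.44 ± 0.16 in Rragc S74N/+ (mean ± SD), with a range of 0.23 to 0.67 in the latter. Lambda light chains were rarer. Iglc1 had 14.5, 25.0, 102, 24.5 and 34.8 normalized counts in Rragc +/+ and 230, 216, 35.0, 68.2 and 64.1 in Rragc S74N/+, which did not pass the test (log2 fold change 1.55 ± 0.51 SE, limma adjusted p = 0.0797). Without the 2 adipose-rich libraries Iglc1 passed it. The 3 lambda constant genes together made up 2.09 to 5.72% of light chain counts in Rragc +/+ and 3.20 to 8.20% in Rragc S74N/+. Iglc2 and Iglc3 share much of their 3′ ends, with 65.3% of the Iglc2 windows within 3 mismatches of Iglc3, so their separate counts are uncertain. Vpreb1, which encodes part of the surrogate light chain of B cell precursors, had 7.28 to 21.1 normalized counts in Rragc +/+ and 1.87 to 6.80 in Rragc S74N/+, and it did not pass (log2 fold change -1.15 ± 0.44 SE, limma adjusted p = 0.118). Of these 4 further chain genes limma called 0, with 2 at an unadjusted p under 0.05 (Iglc1 and Vpreb1). On the 8 libraries with whole reads edgeR and DESeq2 each called 1, Iglc2, and limma called 0. Those 8 lacked Rragc S74N/+ replicate 3, in which Iglc2 had 4.0 normalized counts, against 5.20 to 13.4 in Rragc +/+.

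The make-up of the heavy chain transcripts shows the same split by isotype within each kidney, a measure in which the total amount of antibody RNA cancels. IgG genes made up 3.81, 5.05, 4.45, 2.38 and 2.25% of the counts of the 5 heavy chain genes in Rragc +/+ replicates 1 to 5. In Rragc S74N/+ they made up 16.3, 38.8, 16.6, 23.4 and 8.0%. The genotypes did not overlap, and the means were 3.59 ± 1.24% and 20.6 ± 11.5% (SD, n = 5 each). The nearest values were those of Rragc +/+ replicate 2, with a 95% Wilson interval of 4.03 to 6.30%, and Rragc S74N/+ replicate 5, with 7.32 to 8.74%; these intervals cover counting error only. The shares are made from the values that chose the genes, and they too carry no test.

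Igha took most of the remainder. Its share was 91.2, 77.9, 79.1, 94.9 and 95.8% in Rragc +/+ and 79.4, 50.5, 76.2, 69.1 and 89.3% in Rragc S74N/+, so it was lower on average in Rragc S74N/+ (72.9 ± 14.5% against 87.8 ± 8.67%, SD) with overlap. The Ighm share was 1.92 to 17.1% in Rragc +/+ and 2.71 to 10.7% in Rragc S74N/+, and it was not ordered by genotype. The order of the mean levels therefore differed: in Rragc +/+ it ran Igha, Igkc, Ighm, Jchain, Ighg2b, Ighg2c and Ighg1. In Rragc S74N/+ it ran Igha, Igkc, Ighg2c, Ighg2b, Ighm, Ighg1 and Jchain. There Ighg1 ranked above Jchain only through replicates 1 and 2, and the medians were 40.7 for Ighg1 and 230 for Jchain. In Rragc +/+ Ighm averaged 277 ± 283 and Jchain 143 ± 86.6 (SD), with Ighm the lower in replicate 5. Ighg2b and Ighg2c, neighbours in both orders, differed by less than their SD in each genotype (61.9 ± 33.6 and 54.0 ± 33.6 in Rragc +/+, 525 ± 337 and 672 ± 514 in Rragc S74N/+). The same holds for Ighm and its neighbours in Rragc S74N/+, where its level was 429 ± 309. Igha averaged 3191 ± 1611 against 1357 ± 621 for Igkc in Rragc +/+, and 4959 ± 3312 against 2795 ± 1695 in Rragc S74N/+. Kidney by kidney, Igha exceeded Igkc in all but Rragc S74N/+ replicate 2.

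Among the IgG genes themselves, the shares did not separate the genotypes. Ighg2c made up 19.7 to 60.4% of IgG counts in Rragc +/+ and 38.6 to 57.9% in Rragc S74N/+. Ighg2b made up 37.0 to 70.5% and 29.8 to 57.6%. Ighg1 was the smallest of the 3 in 9 of the 10 kidneys. In Rragc S74N/+ replicate 2 it reached 30.0% of IgG counts and 11.7% of all heavy chain counts, against 0.63 to 2.39% of heavy chain counts in the other Rragc S74N/+ kidneys. The mean Ighg1 level in Rragc S74N/+ (277 ± 411, SD) thus rests on this kidney and on replicate 1.

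**Figure D2:**
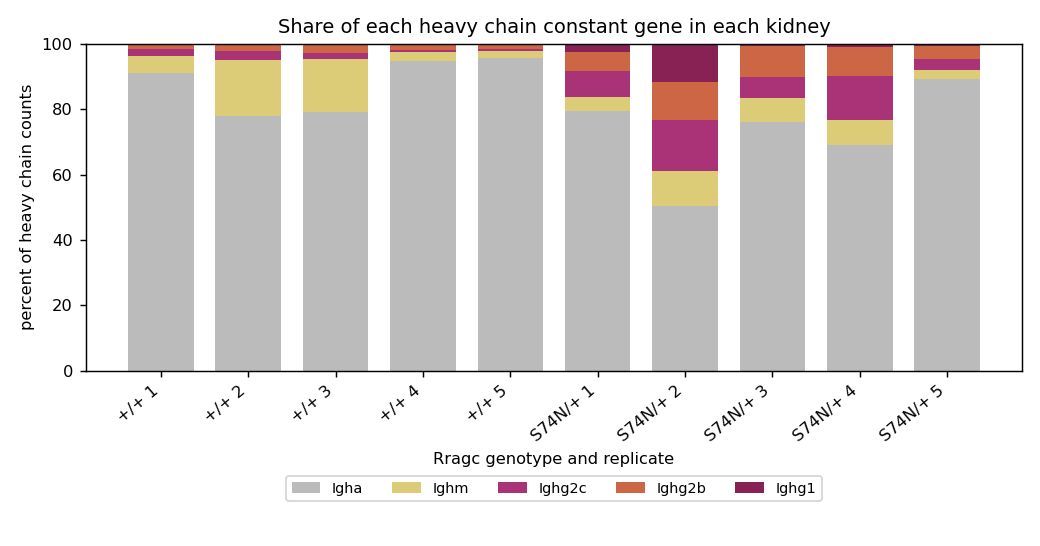
Stacked bars give the percentage of heavy chain normalized counts from Igha (grey), Ighm (yellow), Ighg2c (magenta), Ighg2b (orange) and Ighg1 (dark red) in each of the 10 kidneys. The 3 IgG colours together fill 2.25 to 5.05% of each Rragc +/+ bar and 8.0 to 38.8% of each Rragc S74N/+ bar.

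All 7 genes together made up 0.0449 to 0.152% of all normalized counts in Rragc +/+ and 0.0837 to 0.361% in Rragc S74N/+, with overlap. The ratio of Jchain to the sum of Igha and Ighm was 4.28 ± 1.79% in Rragc +/+ and 5.09 ± 1.99% in Rragc S74N/+ (SD), a difference smaller than the spread between mice.

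Mouse to mouse spread was large for these genes. The SD within genotype on the log2 scale was 1.87 for Ighg1, 1.30 for Ighg2c, 1.24 for Ighm, 0.88 for Ighg2b, 0.87 for Igha, 0.78 for Igkc and 0.69 for Jchain. The median over all tested genes was 0.33, and 4 of the 7 exceeded the 95th percentile of 0.88. Jchain, the steadiest, still varied more than 88.6% of tested genes. Ighg1 was the most uneven, with a 61.1-fold span between the lowest and highest Rragc S74N/+ kidney.

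The genes varied together from mouse to mouse. Averaged over the 7 genes, the deviation from the genotype mean was highest in Rragc S74N/+ replicates 2 and 1 (1.30 and 0.88 on the log2 scale) and in Rragc +/+ replicate 3 (0.98). It was lowest in Rragc S74N/+ replicate 3 (-1.22) and Rragc +/+ replicate 4 (-0.91). Over the 21 pairs of genes, the correlation of these deviations across the 10 kidneys ran from 0.21 for Ighm with Igha to 0.91 for Ighg2b with Igkc, with a median of 0.70. These are descriptions over 10 libraries in which the genes share depth, scaling and any tissue piece that entered the sample. The mean deviation correlated at 0.79 with the deviation of the summed B cell markers, at 0.73 with that of the summed adipose markers, at 0.50 with that of the macrophage markers and at 0.01 with that of the T cell markers. It correlated at -0.56 with the kidney markers, a sum made up mostly of Kap, and at -0.50 with the red blood cell markers. Most of the B cell sum came from Ebf1, which fat and stromal cells also express, and Pou2f2 (means of 117 and 61.3 in Rragc +/+ and 131 and 93.0 in Rragc S74N/+), and Ebf1 was highest in the adipose-rich Rragc S74N/+ replicate 1, at 173.5. The part of adjoining fat in the level of these genes was not tested beyond leaving out the 2 libraries.

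**Figure D3:**
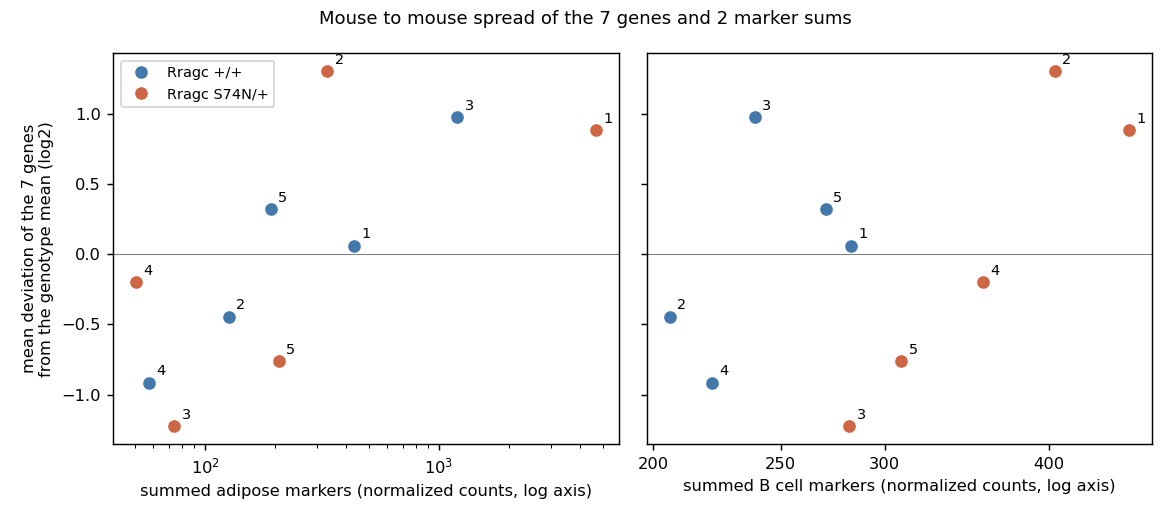
The mean deviation of the 7 genes from their genotype mean (log2) is plotted for each kidney against the summed adipose markers (left) and the summed B cell markers (right), both in normalized counts on log axes; digits are replicate numbers. Rragc +/+ replicate 3 and Rragc S74N/+ replicate 1 lie high and to the right in the left panel, while Rragc S74N/+ replicate 2 has the highest deviation, 1.30, at an adipose sum of 333.

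Markers of B cells were higher in every estimate but passed the test in none. Of 20 listed B cell genes 10 were in the table and 9 were tested. All 9 had a positive log2 fold change, with a median of 0.86. Low genes such as Cr2, Ms4a1 and Cd79b passed the filter mainly through their Rragc S74N/+ values. The shared positive direction therefore follows in part from the filter. By limma 0 of 9 passed, 4 had an unadjusted p under 0.05, and edgeR and DESeq2 on the 8 libraries with whole reads each called 2, Cr2 and Pou2f2. Ms4a1, which encodes the B cell surface protein CD20, had 8.95, 6.24, 2.88, 2.62 and 0.99 normalized counts in Rragc +/+ and 25.2, 26.2, 11, 10.2 and 4.86 in Rragc S74N/+. No value exceeded 26.2, and the log2 fold change was 1.62 ± 0.55 (SE, limma adjusted p = 0.0842). Cd79b, a signalling chain of the B cell receptor, had 1.04 to 8.64 in Rragc +/+ and 2.0 to 20.5 in Rragc S74N/+. The summed B cell markers were 206 to 283 in Rragc +/+ and 282 to 461 in Rragc S74N/+, touching at the edge. Cd79a was not analysed here.

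Of 17 listed genes of plasma cell identity, 10 were tested, 1 was called higher and none lower by limma, and 2 had an unadjusted p under 0.05. The estimates were positive for 5 and negative for 5, with a median log2 fold change of 0.00. The one that rose was Slamf7, a surface receptor of plasma cells that natural killer cells and macrophages also carry. It had 28.0, 21.8, 40.3, 46.3 and 26.9 normalized counts in Rragc +/+ and 72.7, 63.0, 54.99, 49.9 and 74.8 in Rragc S74N/+, without overlap (log2 fold change 0.96 ± 0.23 SE, limma adjusted p = 0.0215). It was not called by edgeR or when Rragc +/+ replicate 1 or 2 or Rragc S74N/+ replicate 5 was left out, the highest adjusted p over all alternatives being 0.0635. Sdc1, the plasma cell surface proteoglycan CD138 that epithelia also make, had 9.36 to 33.6 in Rragc +/+ and 16.3 to 35.9 in Rragc S74N/+ (log2 fold change 0.74 ± 0.35 SE). Xbp1 and Prdm1, transcription factors of the plasma cell program, had log2 fold changes of -0.39 ± 0.21 and -0.02 ± 0.33 (SE) and neither passed. Xbp1, which other secreting and epithelial cells also express, had 92.9 to 214 normalized counts in Rragc +/+ and 78.3 to 138 in Rragc S74N/+. Irf4, Pou2af1, Derl3 and Tnfrsf17 were not analysed here.

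The machinery for folding and exporting antibody is shared with other secreting cells. Of 22 such genes, limma called 1 higher and none lower, with a median log2 fold change of -0.11. Only 6 of the 22 estimates were positive, and at an unadjusted limma p under 0.05 there were 3 higher and 7 lower. Spcs2, a lower one, did not overlap (383 to 433 normalized counts in Rragc +/+, 185 to 349 in Rragc S74N/+). Hsp90b1, which encodes the endoplasmic reticulum chaperone GRP94, rose from 851 to 1343 normalized counts in Rragc +/+ to 1183 to 1933 in Rragc S74N/+ (log2 fold change 0.62 ± 0.15 SE, limma adjusted p = 0.0227). That call was lost when Rragc +/+ replicate 1, 2 or 4 or Rragc S74N/+ replicate 4 or 5 was left out, and without the variance trend. Of 10 tested genes for immunoglobulin transport and Fc receptors, limma, edgeR and DESeq2 called 0, and 1 had an unadjusted p under 0.05. Pigr, which carries polymeric IgA and IgM across epithelium, had 276 to 520 normalized counts in Rragc +/+ and 239 to 657 in Rragc S74N/+. Fcgrt, the neonatal Fc receptor that salvages IgG, had 763 to 1027 and 561 to 926.

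Genes that attract B and plasma cells or keep them alive included 2 called higher and none called lower of 9 tested. Ccl19, a chemokine that draws lymphocytes bearing CCR7, had 20.1, 7.28, 27.8, 9.61 and 16.9 normalized counts in Rragc +/+ and 83.0, 52.3, 49.99, 76.4 and 62.2 in Rragc S74N/+. The genotypes were clearly apart (log2 fold change 2.04 ± 0.31 SE, limma adjusted p = 0.0017), and every alternative that tested it called it. Cd74, the invariant chain of MHC class II and a receptor for the cytokine MIF, had 933, 733, 733, 1066 and 1081 in Rragc +/+ and 2078, 1980, 1570, 1630 and 2065 in Rragc S74N/+ (log2 fold change 1.05 ± 0.14 SE, limma adjusted p = 0.0005). All antigen-presenting cells make it. Tnfsf13b, the B cell survival factor BAFF, had 1.92 to 20.9 in Rragc +/+ and 15.3 to 24.2 in Rragc S74N/+ (log2 fold change 1.06 ± 0.44 SE). Cxcl13 and Cxcl12, chemokines of B cell follicles and of plasma cell niches, had log2 fold changes of 0.45 ± 0.52 and -0.14 ± 0.16 (SE). None of these 3 passed, and Tnfsf13 was not analysed here.

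Among 13 tested genes of class switching and the germinal center, 3 were called higher and none lower, with a median log2 fold change of 0.39. Icos, a costimulatory receptor of helper T cells, had 5.59, 3.12, 3.84, 1.75 and 0.99 normalized counts in Rragc +/+ and 10.3, 19.4, 13.0, 13.2 and 12.6 in Rragc S74N/+ (log2 fold change 1.95 ± 0.45 SE, limma adjusted p = 0.0195). Its call was lost without Rragc S74N/+ replicate 2 (adjusted p = 0.0510). Icos passed the filter on low values mainly through Rragc S74N/+, since in Rragc +/+ only replicate 1 reached 5 normalized counts. Ifngr1, the ligand-binding chain of the interferon gamma receptor, rose by 0.51 ± 0.14 (SE, limma adjusted p = 0.0419) on the log2 scale. Most cells express Ifngr1, and its call was lost in 12 of 23 alternatives, with adjusted p up to 0.0959. Bcl6, a repressor of germinal center B cells that other tissues also express, had 18.9 to 299.5 in Rragc +/+ and 53.0 to 301 in Rragc S74N/+.

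**Figure D4:**
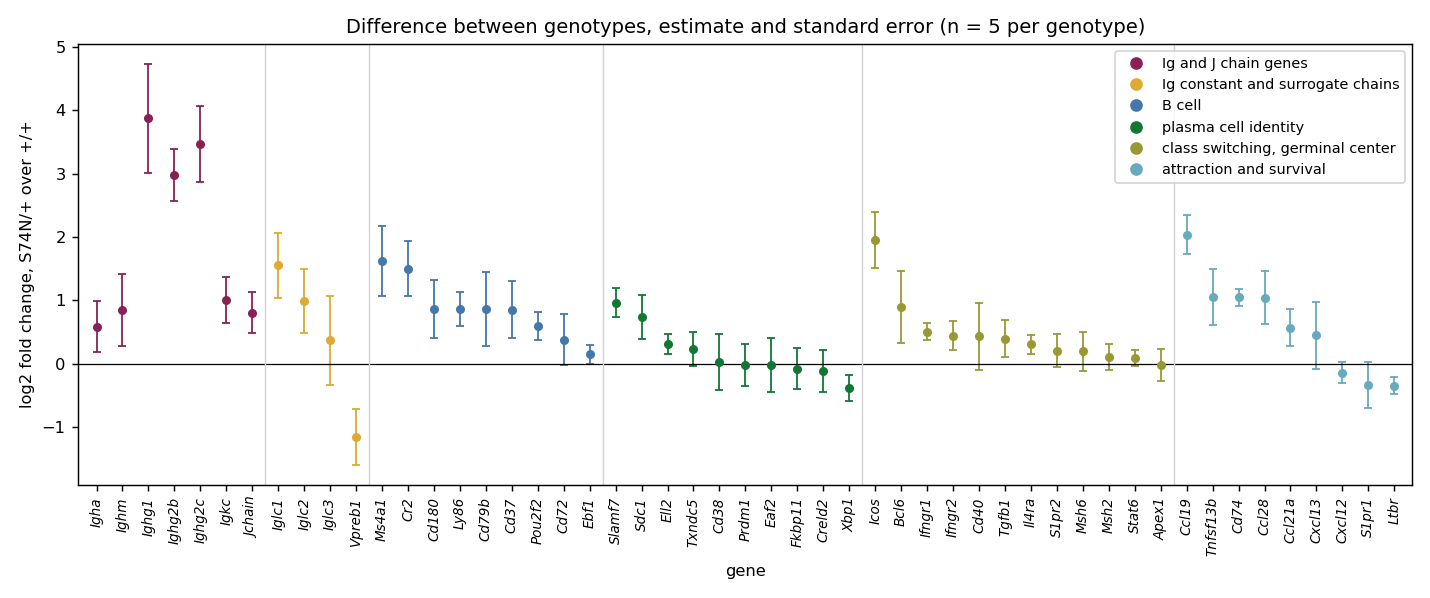
Points give the log2 fold change of Rragc S74N/+ over Rragc +/+ and bars the standard error (n = 5 per genotype) for the 7 immunoglobulin and J chain genes and for genes tested from 5 lists, separated by vertical lines. The 3 IgG genes lie between 2.97 and 3.87, above every listed gene, and the plasma cell identity genes other than Slamf7 and Sdc1 lie between -0.39 and 0.31.

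Some markers of other immune cells passed the test. Of 12 macrophage genes, 5 were called higher and none lower, and their sum was 895 to 1115 normalized counts in Rragc +/+ and 1391 to 1886 in Rragc S74N/+. Cx3cr1, the fractalkine receptor, was among them (log2 fold change 1.22 ± 0.18 SE, limma adjusted p = 0.0015), as were Aif1, Lyz2 and C1qb. Of the 12 macrophage estimates 10 were positive, with a median of 0.69. C1qc and Cd68 were negative (-0.48 ± 0.29 and -0.34 ± 0.36, SE) and did not pass. Of 8 tested T cell genes, 2 were called higher, the T cell receptor constant genes Trbc1 and Trac, and the list summed to 52.7 to 86.4 in Rragc +/+ and 119 to 184 in Rragc S74N/+. Trbc1 had 1.75 to 4.80 in Rragc +/+ and 9.0 to 22.4 in Rragc S74N/+. It therefore passed the filter on low values only through the Rragc S74N/+ kidneys. Trac lost its call in 8 of 22 alternatives, with edgeR and DESeq2 on 8 libraries and without Rragc +/+ replicate 1 or 2 or Rragc S74N/+ replicate 2, 4 or 5 among them (adjusted p up to 0.0743). Of 3 tested neutrophil genes S100a9 was called higher, and of 3 lymph node stroma genes Ccl19 was. The lymph node stroma genes Ccl19, Ccl21a and Cr2 summed to 31.2 to 64.3 in Rragc +/+ and 98.0 to 202 in Rragc S74N/+, highest in replicate 1. All 3 estimates were positive, and edgeR and DESeq2 on 8 libraries called Cr2 as well as Ccl19. S100a9 lost its call in 9 of 22 alternatives, among them the fit without the 2 adipose-rich libraries and those without Rragc +/+ replicate 2, 3, 4 or 5 or Rragc S74N/+ replicate 2, 4 or 5 (adjusted p up to 0.107). Of 6 genes listed for red blood cells 1, Slc4a1, was called lower, and 5 were without the 2 adipose-rich libraries. The 6 genes summed to 11910 to 28565 in Rragc +/+ and 2795 to 13809 in Rragc S74N/+. Slc4a1 did not follow the hemoglobin gene Hba-a1. In Rragc S74N/+ replicate 1 Hba-a1 was lowest (145 against 1352 to 2459 in the others of that genotype). Slc4a1 there had 56.0, inside its range of 29.1 to 89.0. Which cells the Slc4a1 reads came from was not tested. Of 10 kidney genes, Umod, Slc12a3 and Slc5a2 were called lower and none higher. Of 7 tested adipose genes limma, edgeR and DESeq2 called 0, and 0 had an unadjusted p under 0.05. The part of these cell types in the immunoglobulin values was not tested.

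The 10 genes whose deviations from the genotype mean were most like the mean deviation of the 7 genes, among 7735 with a mean of at least 50 normalized counts, were Uty, Uvrag, Tcf4, Dusp7, Polb, Rdh13, Rprd1b, Dnmt1, Rictor and Akap12. Their Pearson r over the 10 kidneys ran from 0.87 to 0.95. They were picked as the highest of many, most of them varied little (the SD within genotype of Uty was 0.15 on the log2 scale), and between 2 and 10 of them stayed in the list when 1 kidney was left out.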

How the data were processed

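Whole kidney RNA (300 ng per library) was sequenced from its 3′ ends after oligo-dT priming. Per the labels, RNA quality scores lay between 6.2 and 7. The authors aligned reads to GRCm39 with TopHat2 2.0.10 and counted them on the sense strand with HTSeq 0.6.1. The deposited signal values are read counts that the authors divided by a size factor per sample. The rule by which low genes were dropped from the table is not given in the sources used here.

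Here genes with at least 5 normalized counts in at least 5 samples (13236) were fitted as log2(value + 1) with limma 3.58.1 in R 4.3.3, genotype as the only term, variance trend, two-sided, Benjamini-Hochberg adjustment over all tested genes, threshold 0.05. The study used a count model, which these values do not allow for all samples. Fold changes on this scale understate those of low genes. Whole reads came back in 8 columns (100% of values whole) and were fitted with edgeR 4.0.16 and DESeq2 1.42.0 as alternatives. They did not come back for Rragc +/+ replicate 5 and Rragc S74N/+ replicate 3. The fits were tested on simulated counts with the same dispersion for every gene. That test does not cover the larger mouse to mouse spread of the immunoglobulin genes.

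The genes described and the gene lists were chosen with earlier results of these data known. Listed genes were named if they passed the test (up to 5 per list, by size of change), with a set of B and plasma cell genes named whatever their values; Cr2, Pou2f2 and genes counted by name in other lists were named after their values were seen. Single values of a few listed genes are not reported here. Likeness was the Pearson correlation of deviations from the genotype mean. Labels give no sex, litter, batch or culture, so p-values measure the spread between these 10 samples. No coordinates are given because the reference at hand was of another build.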

Additional observations from a re-analysis of the deposited data

Results flagged for a closer look

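In 146 sets of 5 values searched, 15 had 1 kidney far from the other 4 of its genotype. About 1 in 20, or 7.3, would be found among independent sets of normally distributed values. The values searched were on the linear scale and some sets were sums of genes also searched singly, so 15 cannot be read against 7.3. Among the members, the sets found were Ighm in Rragc +/+ replicate 3 (765 normalized counts against 60.3 to 257 in the others) and the Ighg1 share of heavy chain counts in Rragc S74N/+ replicate 2 (11.7% against 0.63 to 2.39%). In the same Rragc +/+ replicate 3, Iglc1 was 102 (14.5 to 34.8), Sdc1 33.6 (9.36 to 14.9), Bcl6 299.5 (18.9 to 80.5), Akap12 142 (73.4 to 85.0), the sum of the lambda and surrogate light chain genes 143 (42.7 to 52.7) and the sum of class switching genes 1078 (737 to 804). In Rragc S74N/+ replicate 1, the adipose sum was 4682 (50.9 to 333), the red blood cell sum was lowest at 2795 (11022 to 13809) and Aif1, a macrophage gene, was 73.7 (29.5 to 41.8). The T cell sum was lowest in Rragc S74N/+ replicate 4, at 119 (172 to 184). Among the other Rragc +/+ kidneys, C1qb was 122 in replicate 1 (92.2 to 99.6), Cxcl13 was 17.7 in replicate 2 (2.98 to 4.80) and Cx3cr1 was 92.5 in replicate 5 (52.4 to 58.6).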

How the results depend on the processing

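No paired analysis was possible because the labels carry no replicate numbers. Ighg2b and Ighg2c passed the test in all 23 alternatives, and Ighg1 in all but 3 (without the variance trend, with robust eBayes and without Rragc +/+ replicate 1). The members were chosen with this difference in view, so these passes describe the fits and add no support for it. All 7 log2 fold changes stayed above 0, and that of Ighg1 reached 5.96 with edgeR and 6.0 with DESeq2 on 8 samples. The number of members called was 2 to 4 when 1 kidney was left out and 5, with Igkc and Jchain added, without the 2 libraries highest in adipose markers, an alternative chosen after seeing the data. Of all tested genes, 798 were called in the reported fit, 391 without the variance trend, 1402 with DESeq2 and 311 to 902 with 1 kidney left out. Scaling to equal totals turned the share of higher calls from 57.3% to 76.1%. Of the listed pathway genes 7 were called, 4 with a minimum mean of 50 or without the trend, and 3 to 8 with 1 kidney left out. Of the 10 genes most like the members in pattern, 2 to 10 remained with 1 kidney left out. Title numbers lay under 200 for replicates 1 to 3 of each genotype and over 200 for replicates 4 and 5. The log2 fold change of Ighg1 was 5.04 ± 1.19 (SE) under 200 and 2.11 ± 0.51 (SE) over it. Ighm had 0.42 and 1.49, and Igha 0.83 and 0.23. Rragc S74N/+ replicates 1 and 2, the highest in Ighg1, both lay under 200, so these values do not separate title number from those 2 mice. Ighg1 in Rragc +/+ and B cell markers such as Ms4a1 and Cd79b rest on few reads. The causes of these changes were not tested.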
